A study of Caenorhabditis elegans with 36 samples.

Results

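The RNAs of the 8 genes that encode the subunits of eIF2 and eIF2B were described in total, monosomal and polysomal RNA of *Caenorhabditis elegans*. The members were the loci listed under 1 gene name that begins with *eif-2* and goes on with the name of a subunit. They were 3 genes of eIF2 (*eif-2alpha*, *eif-2beta*, *eif-2gamma*) and 5 genes of eIF2B (*eif-2Balpha*, *eif-2Bbeta*, *eif-2Bgamma*, *eif-2Bdelta*, *eif-2Bepsilon*), out of 41875 loci of which 38790 had 1 name. *eif-2Bgamma* is the gene the study calls *ppp-1*, and *eif-2beta* is its *iftb-1*. The similarly named *eif-2A* and *eif-2D* encode other initiation factors and were no members.

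Whole hermaphrodites were collected at day 1 of adulthood in 3 genotypes grown on OP50 bacteria, namely the mutant strains *ppp-1(wrm10)* and *ppp-1(wrm15)* and the wild type strain Bristol N2 (WT). Both alleles are dominant point mutations that came from a chemical mutagenesis screen for long life and were outcrossed afterwards, and each is represented by 1 strain. From each genotype, RNA was taken from the whole lysate, from 80S monosomes and from polysomes without disomes, in lysates treated with cycloheximide, which holds ribosomes on the mRNA. The labels list 4 libraries for each of these 9 groups. The values are FPKM (read fragments counted relative to transcript length and to a scale for each library), so that levels of different genes can be set side by side within a group. How that scale was set is not stated. FPKM sums over all loci ran from 797995 in *ppp-1(wrm15)* monosomes to 1318999 in *ppp-1(wrm15)* total RNA, and ratios between groups depend on the scale. All values were pooled by the authors, 1 per group. The spread between libraries and the sequencing depth are therefore unknown, no difference below has a test or a replicate check, and "higher" and "lower" refer to these pooled values alone.

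eIF2 is the heterotrimer that brings the initiator tRNA, together with GTP, to the small ribosomal subunit. After the start codon is recognized, eIF2 leaves the ribosome bound to GDP, and eIF2B, its guanine nucleotide exchange factor, reloads it with GTP. In the integrated stress response (ISR), kinases phosphorylate the α-subunit of eIF2, which turns eIF2 into an inhibitor of eIF2B and lowers general initiation while some mRNAs with upstream open reading frames are translated more. The γ- and ε-subunits of eIF2B form its catalytic part, and the α-, β- and δ-subunits form the regulatory part that senses phosphorylated eIF2, as known from yeast and mammals.

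All 8 genes are annotated as protein coding in build WBcel235. The eIF2 genes lie on chromosome I: *eif-2alpha* at 2072680 to 2076925 on the plus strand, *eif-2gamma* at 2313271 to 2315992 on the plus strand and *eif-2beta* at 8026601 to 8028752 on the minus strand. Among the eIF2B genes, *eif-2Bgamma* lies on chromosome II at 6965800 to 6967648 (minus strand, 9 exons, 404 codons) and *eif-2Bepsilon* on chromosome II at 8661869 to 8664721 (plus strand, 7 exons, 666 codons). The regulatory subunit genes are on separate chromosomes, *eif-2Bbeta* on I at 11891576 to 11893727 (minus), *eif-2Balpha* on III at 9543119 to 9544404 (plus) and *eif-2Bdelta* on V at 9513824 to 9517649 (plus). The 8 genes are spread over 4 chromosomes. As annotated, the last 131 bases of *eif-2Bdelta* overlap the protein-coding gene *C50F4.8* on the opposite strand. The deposited table lists both genes separately but under 1 interval, chromosome V 9513824 to 9518933, which spans both annotated genes. The transcripts that the authors assembled there were not analysed here, so the shared stretch can be longer than annotated. Whether the libraries kept strand is not given in the sources used here, so reads from the shared stretch cannot be assigned to either gene. *eif-2gamma* shares 167 bases with an antisense non-coding RNA, Y39G10AR.30, which the table lists under the same interval as *eif-2gamma*, at 0 to 0.382 FPKM.

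Each eIF2 RNA was more abundant than each eIF2B RNA in every group, by 3.41-fold or more. In total RNA, *eif-2alpha*, which carries the phosphorylation site, had 148 FPKM in *ppp-1(wrm10)*, 155 FPKM in *ppp-1(wrm15)* and 146 FPKM in WT animals. *eif-2beta*, whose product binds eIF5 and eIF2B in yeast, had 144 FPKM in *ppp-1(wrm10)*, 150.3 FPKM in *ppp-1(wrm15)* and 153 FPKM in WT. *eif-2gamma*, the GTP-binding core subunit, had 160.3 FPKM in *ppp-1(wrm10)*, 168 FPKM in *ppp-1(wrm15)* and 165 FPKM in WT. The 3 eIF2 RNAs were nearly equal in total RNA, where the highest exceeded the lowest by 1.12-fold in each mutant and 1.13-fold in WT. They stood above 93.1% to 94.0% of the 10960 loci with 1 name and at least 1 FPKM in all 9 groups, the set of loci used for all comparisons below.

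The catalytic subunits of eIF2B were expressed at a lower and similar level. *eif-2Bgamma*, the gene mutated in both strains, had 23.6 FPKM in *ppp-1(wrm10)*, 24.5 FPKM in *ppp-1(wrm15)* and 25.7 FPKM in WT total RNA. *eif-2Bepsilon*, which carries the exchange activity, had 21.9 FPKM in *ppp-1(wrm10)*, 22.6 FPKM in *ppp-1(wrm15)* and 27.3 FPKM in WT. Since the alleles are point mutations, the level of the *eif-2Bgamma* RNA does not check the labels. The regulatory subunits spanned a wider range. *eif-2Bdelta* was the highest eIF2B RNA in total RNA, with 35.9 FPKM in *ppp-1(wrm10)*, 36.3 FPKM in *ppp-1(wrm15)* and 42.9 FPKM in WT. *eif-2Balpha* followed with 31.4 FPKM in *ppp-1(wrm10)*, 31.7 FPKM in *ppp-1(wrm15)* and 34.8 FPKM in WT. *eif-2Bbeta* had 22.04 FPKM in *ppp-1(wrm10)*, 22.05 FPKM in *ppp-1(wrm15)* and 22.7 FPKM in WT, the lowest WT level of the 8 genes. In WT total RNA the eIF2B RNAs stood above 54.4% (*eif-2Bbeta*) to 73.9% (*eif-2Bdelta*) of the loci compared.

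**Figure D1:**
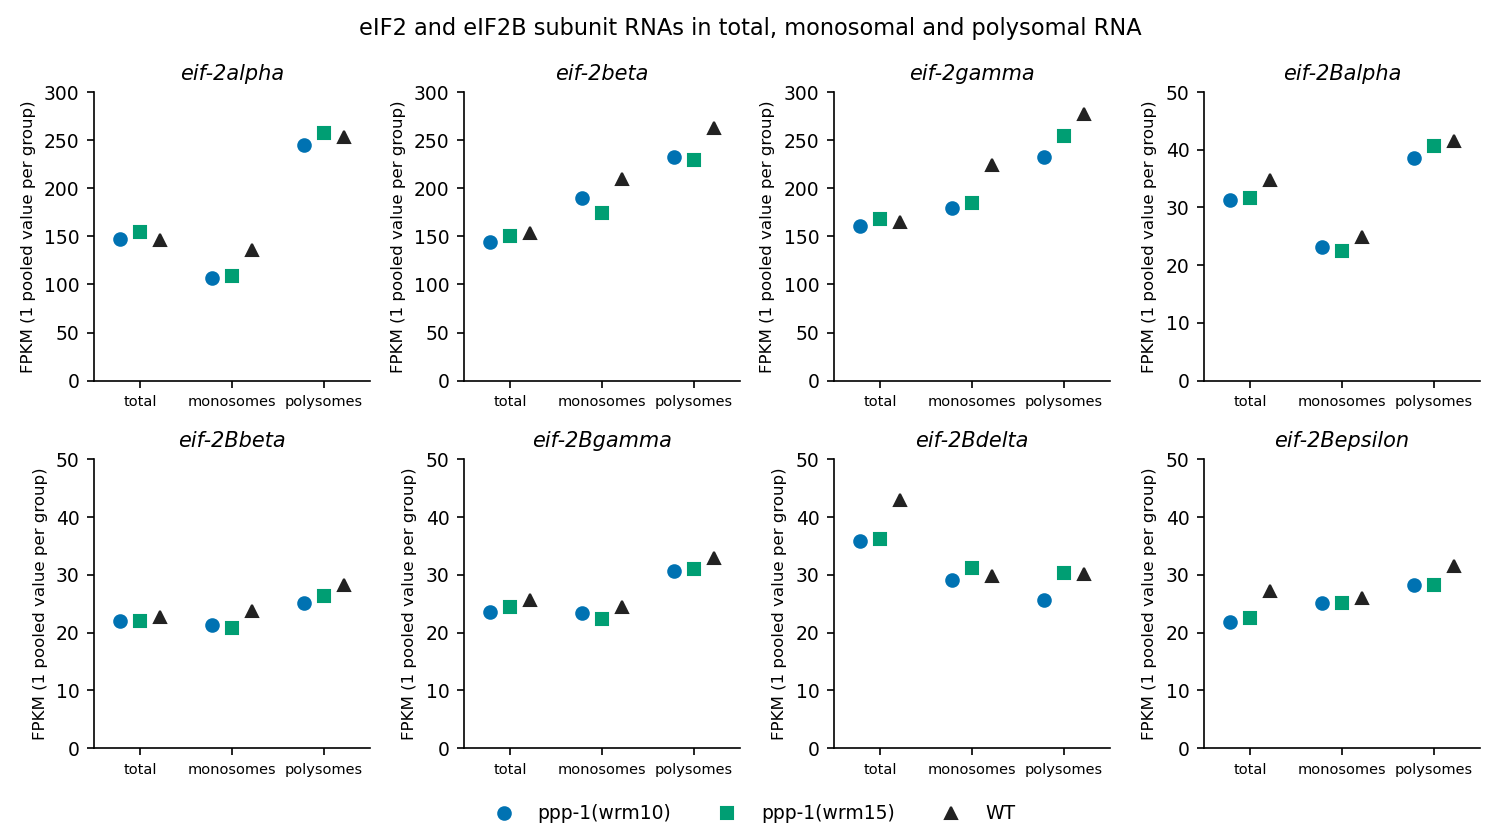
FPKM (vertical axis, 1 pooled value per group) of the 8 genes in total, monosomal and polysomal RNA, with a symbol for *ppp-1(wrm10)*, *ppp-1(wrm15)* and WT. The axis runs to 300 FPKM for eIF2 genes and to 50 FPKM for eIF2B genes; 7 of the 8 genes were highest in polysomes, and *eif-2Bdelta* was highest in total RNA.

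The balance between both complexes differed by fraction. As geometric means over the subunits, eIF2 RNA exceeded eIF2B RNA by 5.69-fold in *ppp-1(wrm10)*, 5.87-fold in *ppp-1(wrm15)* and 5.18-fold in WT total RNA. In polysomes the ratio was higher in every genotype, at 8.07 in *ppp-1(wrm10)*, 7.95 in *ppp-1(wrm15)* and 8.10 in WT. In monosomes it was 6.31 in *ppp-1(wrm10)*, 6.29 in *ppp-1(wrm15)* and 7.24 in WT. Relative to WT, the ratio was thus slightly higher in total RNA and lower in monosomes of both mutants, and within 2% of WT in polysomes.

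**Figure D2:**
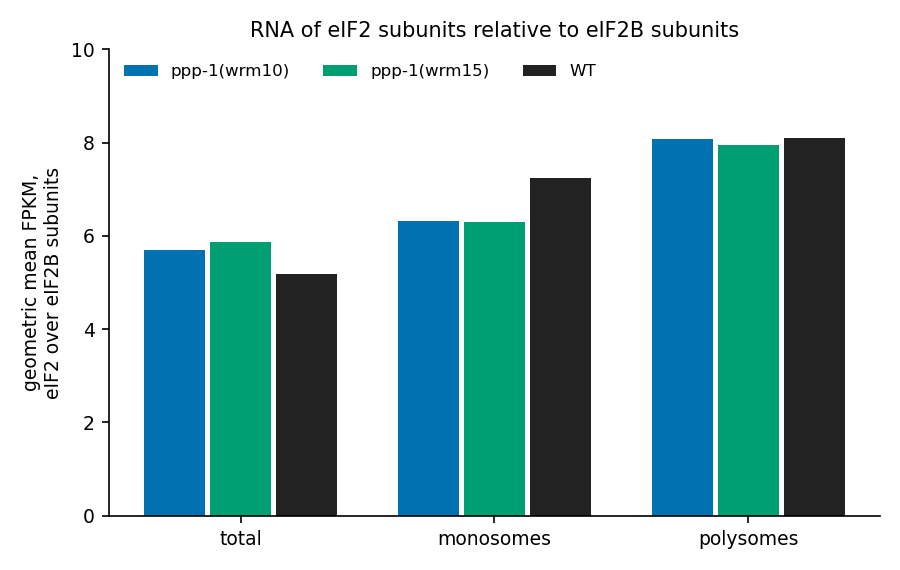
Ratio of the geometric mean FPKM of the 3 eIF2 genes to that of the 5 eIF2B genes (vertical axis, from 0) in each fraction, with 1 bar per genotype and no error bars, since each group has 1 pooled value. The bars stand at 5.18 to 5.87 in total RNA, 6.29 to 7.24 in monosomes and 7.95 to 8.10 in polysomes.

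The first comparison asked how the subunit mRNAs were distributed between polysomes, which carry several ribosomes per mRNA, and the whole lysate. All 3 eIF2 mRNAs were more abundant in polysomes than in total RNA. *eif-2alpha* reached 245 FPKM in *ppp-1(wrm10)*, 258 FPKM in *ppp-1(wrm15)* and 253 FPKM in WT polysomes, which was 1.66-fold, 1.66-fold and 1.73-fold its level in the total RNA of the same genotypes. *eif-2beta* had 232 FPKM in *ppp-1(wrm10)*, 229 FPKM in *ppp-1(wrm15)* and 263 FPKM in WT polysomes, or 1.62-fold, 1.53-fold and 1.72-fold its total level. *eif-2gamma* had 232 FPKM in *ppp-1(wrm10)*, 254 FPKM in *ppp-1(wrm15)* and 277 FPKM in WT polysomes, or 1.45-fold, 1.51-fold and 1.68-fold its total level. The 3 mRNAs remained nearly equal to each other in polysomes, within 1.05-fold in *ppp-1(wrm10)*, 1.12-fold in *ppp-1(wrm15)* and 1.09-fold in WT.

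Most eIF2B mRNAs showed smaller polysomal excesses. *eif-2Bgamma* had 30.7 FPKM in *ppp-1(wrm10)*, 31.1 FPKM in *ppp-1(wrm15)* and 33.0 FPKM in WT polysomes, log2 ratios to total RNA of 0.38, 0.34 and 0.36. *eif-2Bepsilon* had 28.3 FPKM in each mutant and 31.6 FPKM in WT polysomes, with log2 ratios of 0.37 in *ppp-1(wrm10)*, 0.33 in *ppp-1(wrm15)* and 0.21 in WT. For both catalytic subunits the excess was thus smaller than for any eIF2 gene in every genotype. *eif-2Balpha* had 38.5 FPKM in *ppp-1(wrm10)*, 40.7 FPKM in *ppp-1(wrm15)* and 41.6 FPKM in WT polysomes, the highest polysomal level of eIF2B. *eif-2Bbeta* had 25.2 FPKM in *ppp-1(wrm10)*, 26.4 FPKM in *ppp-1(wrm15)* and 28.3 FPKM in WT polysomes. Their log2 ratios to total RNA lay between 0.19 and 0.36.

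*eif-2Bdelta* ran the other way. It had 25.7 FPKM in *ppp-1(wrm10)*, 30.4 FPKM in *ppp-1(wrm15)* and 30.1 FPKM in WT polysomes, all below its total RNA, with log2 ratios of -0.48, -0.26 and -0.51. Its antisense neighbour *C50F4.8* had 29.9 FPKM in *ppp-1(wrm10)*, 25.7 FPKM in *ppp-1(wrm15)* and 23.6 FPKM in WT polysomes, with log2 ratios to total RNA of 0.66, 0.72 and 0.59. The neighbour thus stood higher in polysomes where *eif-2Bdelta* stood lower; the part of reads from the shared stretch in these values was not tested.

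A polysomal excess of at least 1.5-fold was counted in 2 of the 8 genes in *ppp-1(wrm10)*, where 22.6% of all loci compared had one, in 3 of 8 in *ppp-1(wrm15)* (23.6% of all loci) and in 3 of 8 in WT (27.3% of all loci). The genes counted were eIF2 genes: all 3 in *ppp-1(wrm15)* and WT, and *eif-2alpha* and *eif-2beta* in *ppp-1(wrm10)*. The shares of members are near those of all loci. The median log2 ratio of the 8 genes was 0.37 in *ppp-1(wrm10)*, 0.35 in *ppp-1(wrm15)* and 0.34 in WT, beside medians over all loci of 0.08, 0.09 and 0.15. After these medians were subtracted, the signs of all 8 genes stayed the same, but in *ppp-1(wrm15)* only 1 gene in place of 3 had an excess of at least 1.5-fold: *eif-2beta* and *eif-2gamma* then stood at 0.52 and 0.50. Each value is relative to the other RNAs of its fraction, not an amount of RNA per animal.

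Monosomes separated *eif-2alpha* from its partner subunits. *eif-2alpha* had 106 FPKM in *ppp-1(wrm10)*, 109 FPKM in *ppp-1(wrm15)* and 136 FPKM in WT monosomes, below its total level in all 3 genotypes. *eif-2beta* had 189 FPKM in *ppp-1(wrm10)*, 174 FPKM in *ppp-1(wrm15)* and 210.1 FPKM in WT monosomes, and *eif-2gamma* had 179 FPKM in *ppp-1(wrm10)*, 184 FPKM in *ppp-1(wrm15)* and 225 FPKM in WT monosomes, above their total levels. The highest eIF2 mRNA therefore exceeded the lowest by 1.78-fold in *ppp-1(wrm10)*, 1.70-fold in *ppp-1(wrm15)* and 1.65-fold in WT monosomes. Among eIF2B genes, *eif-2Balpha* was also below its total level in monosomes, with 23.1 FPKM in *ppp-1(wrm10)*, 22.4 FPKM in *ppp-1(wrm15)* and 24.8 FPKM in WT, and so were *eif-2Bgamma* and *eif-2Bdelta* in all 3 genotypes.

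Of the eIF2B genes in monosomes, *eif-2Bdelta* was highest and *eif-2Bbeta* lowest in all 3 genotypes. *eif-2Bgamma* had 23.5 FPKM in *ppp-1(wrm10)*, 22.3 FPKM in *ppp-1(wrm15)* and 24.5 FPKM in WT monosomes. *eif-2Bepsilon* had 25.1 FPKM in *ppp-1(wrm10)*, 25.2 FPKM in *ppp-1(wrm15)* and 25.98 FPKM in WT. *eif-2Bbeta* had 21.3 FPKM in *ppp-1(wrm10)*, 20.8 FPKM in *ppp-1(wrm15)* and 23.8 FPKM in WT, the lowest of the 8 genes in all 3 genotypes. Only *eif-2Bdelta* had a higher monosomal level in a mutant than in WT, with 29.1 FPKM in *ppp-1(wrm10)*, 31.2 FPKM in *ppp-1(wrm15)* and 29.8 FPKM in WT monosomes. The ratio of polysomal to monosomal RNA was at least 1.5-fold for *eif-2alpha* and *eif-2Balpha* in each genotype, 2 of 8 genes, beside 21.9% of all loci in *ppp-1(wrm10)*, 24.2% in *ppp-1(wrm15)* and 24.2% in WT. For *eif-2alpha* it was 2.30-fold in *ppp-1(wrm10)*, 2.37-fold in *ppp-1(wrm15)* and 1.86-fold in WT, which placed it above 93.9%, 92.8% and 86.8% of the loci. For *eif-2Balpha* it was 1.66-fold in *ppp-1(wrm10)*, 1.81-fold in *ppp-1(wrm15)* and 1.68-fold in WT. *eif-2Bdelta* lay near even, at log2 ratios of -0.18, -0.04 and 0.02, and the WT value changed sign when the median over all loci was subtracted.

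**Figure D3:**
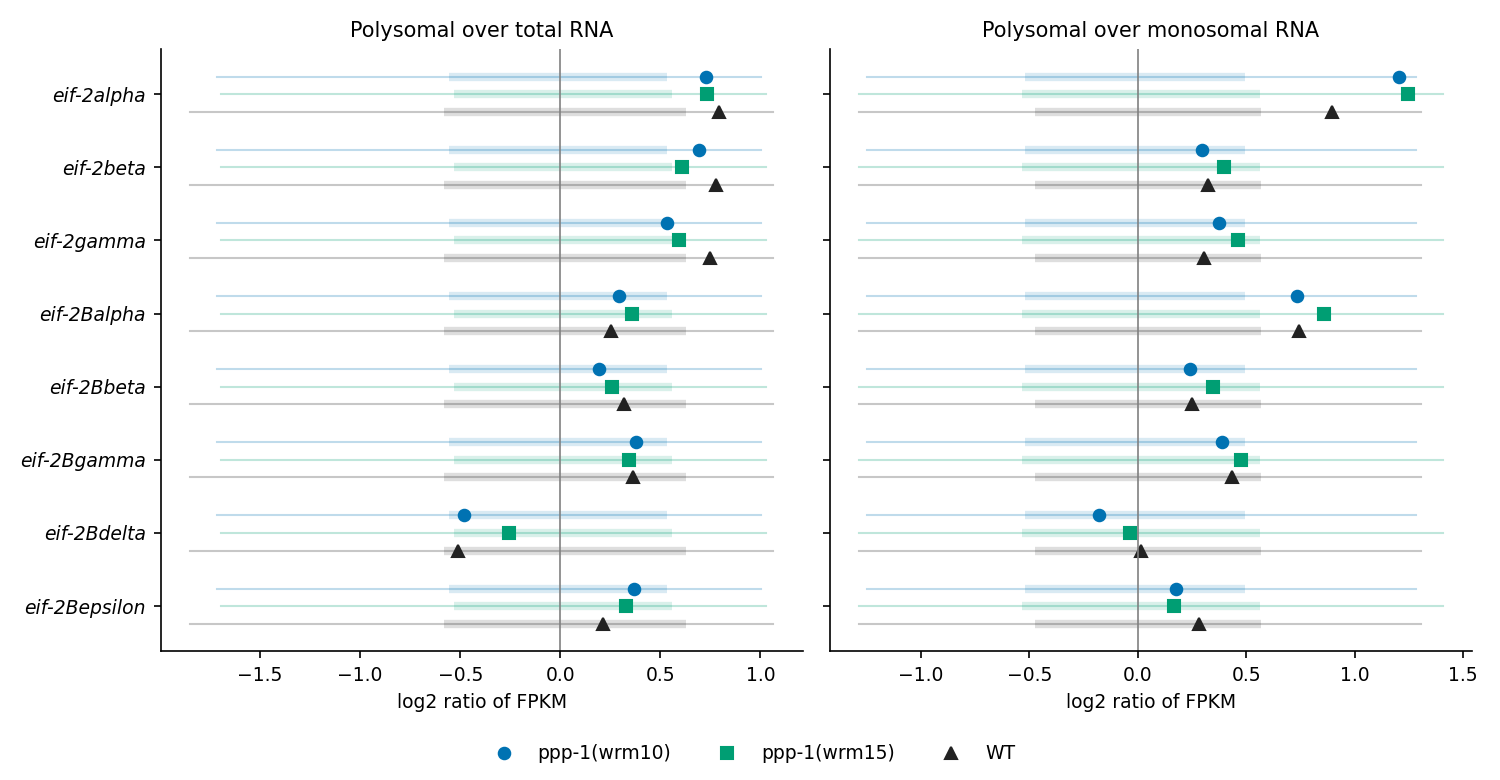
Log2 ratio of FPKM in polysomal over total RNA (left) and in polysomal over monosomal RNA (right) for the 8 genes, with symbols for *ppp-1(wrm10)*, *ppp-1(wrm15)* and WT. Thick and thin pale bars behind the symbols span the middle 50% and the middle 90% of the 10960 loci; on the left the eIF2 genes lie at 0.54 to 0.79 and *eif-2Bdelta* at -0.51 to -0.26, and on the right *eif-2alpha* lies farthest to the right at 0.89 to 1.24.

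The next comparisons asked whether the *ppp-1* mutations went along with other levels of the subunit RNAs. Most subunit RNAs lay slightly below WT in each fraction, and none lay far from it. None of the 8 genes differed by 1.5-fold or more from WT in total RNA (9.90% of all loci did in *ppp-1(wrm10)* animals and 10.1% in *ppp-1(wrm15)*), in monosomes (11.8% and 12.7% of all loci) or in polysomes (9.85% and 10.1%). These shares include loci with low FPKM, whereas the 8 genes exceeded 10 FPKM in every group. Over loci with at least 10 FPKM in all 9 groups, the shares were 4.07% and 3.95% in total RNA. They were 5.05% and 5.57% in monosomes and 3.88% and 4.07% in polysomes. The largest difference among the 48 values was 1.28-fold, for *eif-2alpha* in *ppp-1(wrm10)* monosomes. Of the 48 values, 42 were below WT and 6 above, and 35 lay below the median over all loci of their comparison, which itself was between -0.06 and -0.02 on the log2 scale. Both mutants share the WT groups, so these values are not independent of each other. In these whole-animal samples, fewer cells of a type and less RNA per cell cannot be told apart.

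In total RNA the lowest values relative to WT were those of *eif-2Bepsilon* and *eif-2Bdelta*. *eif-2Bepsilon* differed from WT by -0.32 in *ppp-1(wrm10)* animals and -0.28 in *ppp-1(wrm15)* on the log2 scale, and *eif-2Bdelta* by -0.26 and -0.24. These values stood above 6.90% and 12.6% of all loci for *eif-2Bepsilon* and above 11.2% and 16.0% for *eif-2Bdelta*, at the low end but inside the middle 90%. *eif-2Bgamma* itself differed by -0.12 in *ppp-1(wrm10)* animals and -0.06 in *ppp-1(wrm15)*. The eIF2 genes lay within 0.10 of WT in both mutants, with *eif-2beta* at -0.09 in *ppp-1(wrm10)* animals and -0.03 in *ppp-1(wrm15)*. Relative to the median over all loci, *eif-2Bbeta* and *eif-2gamma* turned from below to above 0 in *ppp-1(wrm10)*, and *eif-2beta* did so in *ppp-1(wrm15)*.

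In monosomes *eif-2alpha* and *eif-2gamma* had the lowest values in both mutants. *eif-2alpha* differed from WT by -0.36 in *ppp-1(wrm10)* animals and -0.33 in *ppp-1(wrm15)*, *eif-2gamma* by -0.33 and -0.28, and *eif-2beta* by -0.15 and -0.27. The eIF2B genes lay between -0.16 and -0.03 in *ppp-1(wrm10)* and between -0.19 and 0.07 in *ppp-1(wrm15)*, with *eif-2Bgamma* at -0.06 and -0.13; in *ppp-1(wrm10)*, *eif-2Bgamma*, *eif-2Bdelta* and *eif-2Bepsilon* turned positive when the median over all loci was subtracted. Muscle and intestine markers were lower in the same fraction. The FPKM sum over all 41875 loci was lower there as well, at 812462 in *ppp-1(wrm10)*, 797995 in *ppp-1(wrm15)* and 892331 in WT monosomes, so lower sums were not particular to these markers. The 4 muscle markers summed to 1087 FPKM in *ppp-1(wrm10)*, 1031 FPKM in *ppp-1(wrm15)* and 1408 FPKM in WT monosomes, and the 8 intestine markers to 8244 FPKM, 8857 FPKM and 10673 FPKM. None of these 12 markers was at 0 in every group, and all 12 were below WT in monosomes of both mutants. The sum of the 4 germline markers (814, 861 and 994 FPKM) was lower in both mutants too. The sum of the 157 hypodermis markers was also lower (14840, 15666 and 20505 FPKM), but the 97 compared went both ways. In *ppp-1(wrm10)* monosomes 27 were at least 1.5-fold higher and 15 lower (median log2 ratio 0.07), beside 9.97% and 1.85% of all loci. In *ppp-1(wrm15)* monosomes 12 were higher and 12 lower (median -0.11), beside 8.83% and 3.87% of all loci. The 10 oocyte and embryo markers summed to 1257 FPKM in *ppp-1(wrm10)*, 1707 FPKM in *ppp-1(wrm15)* and 1345 FPKM in WT monosomes. The part of these cell types in the eIF2 values was not tested.

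In polysomes, *eif-2gamma* differed from WT by -0.25 in *ppp-1(wrm10)* animals and -0.13 in *ppp-1(wrm15)*, *eif-2beta* by -0.18 and -0.20, and *eif-2alpha* by -0.05 and 0.02. *eif-2Bgamma* stood at -0.10 in *ppp-1(wrm10)* animals and -0.09 in *ppp-1(wrm15)*, and *eif-2Bepsilon* at -0.16 in both. *eif-2Bdelta* was the gene on which the alleles differed most, at -0.23 in *ppp-1(wrm10)* animals and 0.01 in *ppp-1(wrm15)*. Its antisense neighbour *C50F4.8* stood at 0.34 and 0.12, and the part of reads from the shared stretch was not tested. The value of *eif-2alpha* in *ppp-1(wrm10)* turned positive relative to the median over all loci. Summed FPKM of the 35 sperm markers, the *msp* genes, was 6398 in *ppp-1(wrm10)*, 6797 in *ppp-1(wrm15)* and 10094 in WT polysomes. The sum over all loci was lower in mutant polysomes too, at 832885 in *ppp-1(wrm10)*, 868588 in *ppp-1(wrm15)* and 917491 in WT. Among the 31 sperm markers compared, 18 were at least 1.5-fold below WT with the *wrm10* allele, beside 2.43% of all loci. With the *wrm15* allele 15 were, beside 2.99%. Only 1 was at least 1.5-fold above WT with either allele, beside 7.43% and 7.10% of all loci. The part of the sperm markers in the subunit values was not tested. Across all 6 mutant comparisons, *eif-2beta* lay between -0.27 and -0.03 and *eif-2Bgamma* between -0.13 and -0.06, below WT in 6 of 6 for both genes. *eif-2Balpha*, *eif-2Bbeta* and *eif-2Bepsilon* were also below WT in 6 of 6. The median over all loci was itself below 0 in each comparison, and the share of all loci below WT in 6 of 6 was not computed. Relative to that median, *eif-2beta* turned positive in *ppp-1(wrm15)* total RNA and *eif-2Bgamma* in *ppp-1(wrm10)* monosomes.

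**Figure D4:**
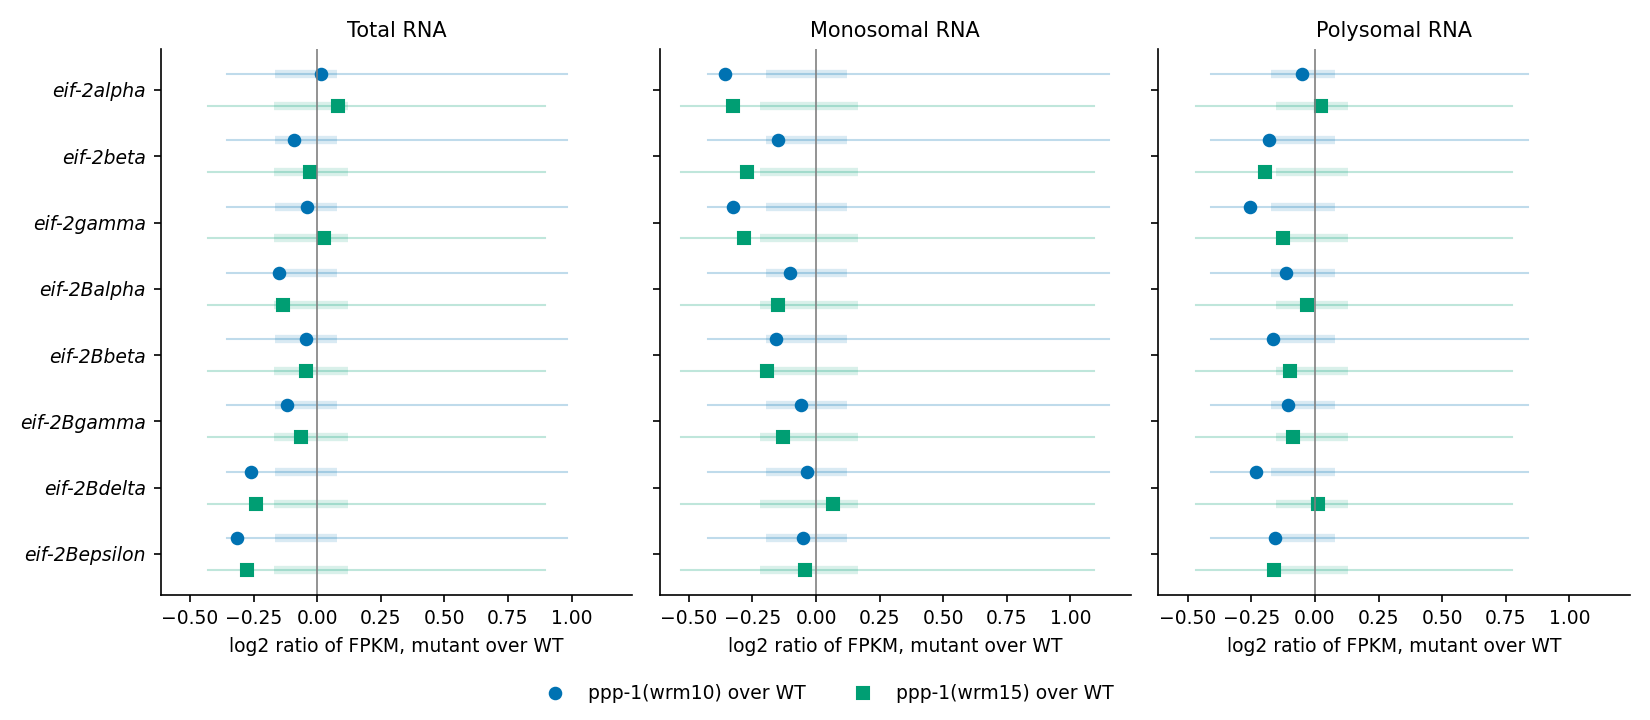
Log2 ratio of FPKM in mutant over WT animals (horizontal axis) for the 8 genes in total, monosomal and polysomal RNA, with circles for *ppp-1(wrm10)* and squares for *ppp-1(wrm15)*. Thick and thin pale bars span the middle 50% and the middle 90% of the 10960 loci; all symbols lie between -0.36 and 0.08, inside the middle 90%.

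Translational efficiency was taken as polysomal over total FPKM, as in the study's methods, and its change as the log2 ratio in a mutant minus that in WT. No member differed by 1.5-fold or more, beside 3.62% of all loci in *ppp-1(wrm10)* animals and 3.86% in *ppp-1(wrm15)*. The eIF2 genes were below WT in both mutants, *eif-2alpha* by -0.06 in each, *eif-2beta* by -0.09 in *ppp-1(wrm10)* animals and -0.17 in *ppp-1(wrm15)*, and *eif-2gamma* by -0.21 and -0.15. *eif-2Bepsilon* was above WT by 0.16 in *ppp-1(wrm10)* animals and 0.12 in *ppp-1(wrm15)*, *eif-2Bdelta* by 0.03 and 0.26, and *eif-2Balpha* by 0.04 and 0.10. *eif-2Bbeta* was below WT, at -0.12 and -0.06. *eif-2Bgamma* stood at 0.01 in *ppp-1(wrm10)* animals and -0.02 in *ppp-1(wrm15)*. These directions depended on the denominator. With monosomal in place of total RNA, *eif-2alpha* was above WT by 0.31 in *ppp-1(wrm10)* animals and 0.35 in *ppp-1(wrm15)*, *eif-2gamma* was above by 0.07 and 0.16, and *eif-2Bepsilon* was below, at -0.11 and -0.12.

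The 2 alleles were also set against each other, a comparison with no WT sample in it. No member differed by 1.5-fold or more between *ppp-1(wrm15)* and *ppp-1(wrm10)* in total RNA (1.76% of all loci did), monosomes (2.83%) or polysomes (1.78%). In total RNA the 8 log2 ratios of *ppp-1(wrm15)* over *ppp-1(wrm10)* lay between 0.00 and 0.07. *eif-2beta* stood at 0.07 in total RNA, -0.12 in monosomes and -0.02 in polysomes, and *eif-2Bgamma* at 0.05, -0.07 and 0.02, the last of which turned negative relative to the median over all loci. The largest of the 24 differences was that of *eif-2Bdelta* in polysomes, 1.18-fold higher in *ppp-1(wrm15)*, above 91.8% of all loci. Its antisense neighbour *C50F4.8* had a log2 ratio of -0.22 in the same comparison, and the part of reads from the shared stretch was not tested.

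Genes of the same pathway were described by lists. The 12 subunit genes of eIF3, the scaffold that joins the ternary complex to the ribosome, had median log2 polysomal over total ratios of 0.53 in *ppp-1(wrm10)*, 0.58 in *ppp-1(wrm15)* and 0.65 in WT. An excess of at least 1.5-fold was counted in 5 of 12 in *ppp-1(wrm10)*, 6 in *ppp-1(wrm15)* and 8 in WT, beside 22.6%, 23.6% and 27.3% of all loci. The 8 genes of cap binding and eIF4F had medians of 0.64 in *ppp-1(wrm10)*, 0.66 in *ppp-1(wrm15)* and 0.79 in WT. The eIF2 genes, with a median of 0.78 in WT, lay in the range of these lists, and the eIF2B genes, with 0.26, lay near the median over all loci of 0.15. The 6 further initiation factors had a WT median of 0.48. Among them, *eif-2D* had 23.0 FPKM in *ppp-1(wrm10)*, 23.5 FPKM in *ppp-1(wrm15)* and 28.4 FPKM in WT total RNA, and *eif-2A* had 156, 163 and 170 FPKM. None of the 12 eIF3, 8 cap-binding or 6 further factor genes differed by 1.5-fold from WT in any fraction of either mutant. Of all loci, 9.85% to 12.7% did so in a single comparison. In monosomes the eIF3 median was -0.23 in each mutant, beside eIF2 medians of -0.33 in *ppp-1(wrm10)* animals and -0.28 in *ppp-1(wrm15)*.

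The 7 ISR genes listed were the kinases *gcn-2* and *pek-1*, the transcription factor *atf-5*, the homologue of ATF4, the GCN2 activators *gcn-1* and *abcf-3*, and *gsp-1* and *gsp-2*, which encode catalytic subunits of protein phosphatase 1. None of the 7 differed by 1.5-fold from WT in any fraction of either mutant, beside 9.85% to 12.7% of all loci in a single comparison. Log2 ratios to WT in total RNA were 0.05 in *ppp-1(wrm10)* animals and -0.16 in *ppp-1(wrm15)* for *atf-5*, -0.18 and -0.21 for *gcn-2*, and 0.11 in *ppp-1(wrm15)* for *pek-1*, which lay within 0.01 of WT in *ppp-1(wrm10)*. Those of *gcn-1*, *abcf-3*, *gsp-1* and *gsp-2* lay between -0.12 and 0.06. Of the 7, 2 were at least 1.5-fold lower in polysomes than in total RNA in every genotype, beside 24.2% of all loci in *ppp-1(wrm10)*, 23.7% in *ppp-1(wrm15)* and 24.9% in WT. *atf-5* had 11.8 FPKM in *ppp-1(wrm10)*, 9.87 FPKM in *ppp-1(wrm15)* and 12.0 FPKM in WT polysomes, against 30.3, 26.1 and 29.2 FPKM in total RNA. *gcn-2* had log2 polysomal over total ratios of -0.72 in *ppp-1(wrm10)*, -0.64 in *ppp-1(wrm15)* and -0.93 in WT.

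**Figure D5:**
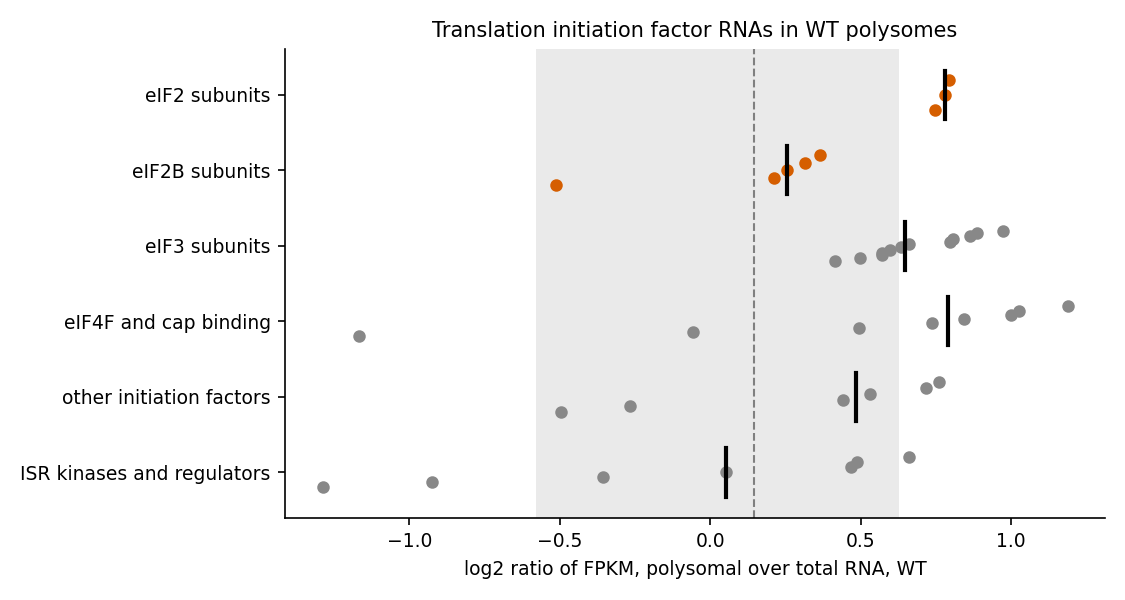
Log2 ratio of polysomal over total FPKM in WT animals (horizontal axis), with 1 point per gene and a black line at each list's median; orange points are eIF2 and eIF2B genes. The grey band spans the middle 50% of the 10960 loci and the dashed line their median of 0.15; the 3 eIF2 genes lie at 0.75 to 0.79, and 4 of the 5 eIF2B genes lie at 0.21 to 0.36 with *eif-2Bdelta* at -0.51.

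The patterns of the members over the 9 groups were compared with each other as a description; the 9 points share fractions and genotypes. *eif-2beta* and *eif-2gamma* were closest within eIF2 (Pearson r of log2 FPKM 0.97, 9 groups), whereas *eif-2alpha* was closer to *eif-2Bgamma* (0.96) than to *eif-2beta* (0.65). *eif-2Bgamma* and *eif-2Bbeta* correlated at 0.96, and *eif-2Bdelta* had coefficients between -0.77 and 0.04 with the other 7 genes. Among 5619 other loci with at least 10 FPKM in all groups, those most like *eif-2Bgamma* were *F54D5.4* (0.998), *oxa-1* (0.997), *F52E1.14* (0.997), *R10H10.3* (0.995) and *mrpl-49* (0.995). Those most like *eif-2beta* were *fars-3* (0.993), the eIF3 subunit gene *eif-3.L* (0.993), *nrfl-1* (0.992), *pfd-2* (0.991) and *pcyt-1* (0.991). Spearman's rho was 0.933 to 1 for the first 5 and 0.967 to 0.983 for the second 5. Of the loci named, only *F54D5.4* was also among the 5 highest by rho for its member. *F52E1.14* had a rho of 1 with *eif-2Bgamma* as well but was not among those 5, so loci tied at 1 and rho gave no single order. The choice of loci thus depended on the coefficient and, among tied loci, on the order in which ties were taken.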

How the data were processed

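Ribosomal RNA was depleted, and libraries were sequenced on a HiSeq2000. The authors mapped reads with HISAT2 2.1.0 (WBcel235), assembled transcripts with StringTie 1.3.4d and Cuffmerge, and quantified and compared groups with Cuffquant and Cuffdiff (Cufflinks 2.2.1). The deposited values are FPKM, which the authors' run pooled into 1 value for each of 41875 loci and 9 groups. How the libraries were normalized, and whether they kept strand, is not stated by the labels or the methods. The same table holds the authors' own fold changes, test statistics, p-values and q-values for 36 pairs of groups; these columns were not used. The depth of the libraries is unknown.

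Log2 ratios of FPKM were computed without a pseudocount (Python 3.11.15, pandas 2.3.3, numpy 2.4.6) over 10960 loci with 1 name and at least 1 FPKM in all 9 groups, and differences of at least 1.5-fold were counted. No test could be made from pooled values. Every member was named; of other lists, the ISR genes and at most the 2 highest and 2 lowest, *eif-2A* and *eif-2D* being given besides for their names and *C50F4.8* for its overlap; and the 5 loci most like *eif-2Bgamma* and *eif-2beta*. Members and lists were chosen with earlier results of these data known. Coordinates are from Ensembl release 115. The calculation was tested on simulated data. Alternatives changed the pseudocount, centring, filters, fold and denominator.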

Additional observations from a re-analysis of the deposited data

How the results depend on the processing

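No paired analysis was possible because the values are pooled per group and carry no replicate number, and for the same reason no replicate could be left out. The median log2 change of the 8 genes moved by less than the distance from the centre to the edge of the middle 50% of all loci (0.5 times its width) in all 17 comparisons when 0.1 or 1 FPKM was added or the median over all loci was subtracted, and it did so for both changes in translational efficiency with the other 2 denominators. Counts of genes changed moved mainly with the fold counted. At a log2 difference of 0.32, 2 genes differed from WT in *ppp-1(wrm10)* monosomes and 1 in *ppp-1(wrm15)* monosomes, beside 25.1% and 29.0% of all loci. At that size, 6 genes in *ppp-1(wrm10)*, 6 in *ppp-1(wrm15)* and 5 in WT differed between polysomal and total RNA, beside 69.2%, 69.6% and 74.0% of all loci, and 4, 6 and 4 between polysomal and monosomal RNA, beside 66.7%, 68.8% and 67.5%. At a log2 difference of 1, 0 differed between polysomal and total RNA in each genotype, beside 19.5%, 19.4% and 22.7% of all loci, and 1 in *ppp-1(wrm10)*, 1 in *ppp-1(wrm15)* and 0 in WT between polysomal and monosomal RNA, beside 18.4%, 21.6% and 19.7%. After centring, 1 gene in *ppp-1(wrm15)* kept a polysomal to total ratio of at least 1.5-fold in place of 3. Of 16 single values of translational efficiency, 10 moved by more than this distance with monosomal RNA as the denominator and 9 with the sum of both ribosomal fractions. In monosomes of *ppp-1(wrm10)*, the share of all loci at 1.5-fold was 21.8% over loci above 0 and 5.05% over loci with at least 10 FPKM, in place of 11.8%; the depth that limits low values is unknown.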

Other observations

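The nearest protein-coding genes on either side of each member, among the loci compared, were read from the annotation after the values of some of them had been seen. Of these 16 neighbours, 2 differed from WT by at least 1.5-fold in 1 or more of the 6 mutant comparisons. In each single comparison 9.85% to 12.7% of all loci did so, and the share over any of the 6 was not computed. The count is therefore not read as a trait of the neighbours. The other 14 had log2 ratios to WT between -0.46 and 0.34. *ZK1098.9* begins 20 bases after the end of *eif-2Balpha* on the same strand. It had 31.9 FPKM in *ppp-1(wrm10)*, 33.9 FPKM in *ppp-1(wrm15)* and 12.4 FPKM in WT total RNA, and 52.0, 52.3 and 10.7 FPKM in monosomes, while *eif-2Balpha* was slightly below WT in both. *C15F1.5* lies 251 bases from *eif-2Bgamma*, on the same strand. In monosomes it had 25.7 FPKM in *ppp-1(wrm10)*, 23.6 FPKM in *ppp-1(wrm15)* and 12.0 FPKM in WT, and its log2 ratios to WT in total RNA were 0.58 and 0.59, while *eif-2Bgamma* was below WT in every fraction. No replicate values stand behind these differences, and their cause was not tested.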
